A study of Mus musculus with 38 samples.

Results

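Expression of 9 genes of fatty acid synthesis and desaturation (Acly, Acaca, Fasn, Elovl5, Elovl6, Scd1, Scd2, Scd4 and Srebf1) was examined in the left ventricle of a mouse model of HFpEF, a form of heart failure in which the ejection fraction is preserved. The members were taken by symbol from tables of 29564 genes, and all 9 were among the 13765 genes that passed the filter on low counts. RNA from whole left ventricle was sequenced for 38 C57BL6 mice of WT genotype, 1 library per mouse number. The non-failing mice (non_failing in the titles, n = 8) are labelled Vehicle, as are the HFpEF+Veh mice (n = 8). HFpEF+TYA-018 mice (n = 11) received TYA-018, an inhibitor of the deacetylase HDAC6, and HFpEF+SGLT2i mice (n = 11) received empagliflozin, an inhibitor of the renal glucose transporter SGLT2. All 3 HFpEF groups had been given a high-fat diet with L-NAME, a nitric oxide synthase inhibitor, so the diet and L-NAME cannot be told apart as sources of any difference from the non-failing mice. No age is given in the labels, which call the mice female where the methods of the study call them male, and the sources differ on how long the drugs were given.

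Fatty acid synthesis builds palmitate in the cytosol from acetyl-CoA. ATP citrate lyase (Acly) splits citrate that has left the mitochondrion into acetyl-CoA, acetyl-CoA carboxylase (Acaca, Acacb) turns this into malonyl-CoA, and fatty acid synthase (Fasn) joins the units into a saturated chain. Elongases (Elovl5, Elovl6) lengthen acyl chains, and the stearoyl-CoA desaturases (Scd1 to Scd4 in the mouse) place a double bond at the delta-9 position to make monounsaturated fatty acids such as oleate. Srebf1 encodes SREBP-1, the transcription factor known for driving many of these genes in liver and adipose tissue under insulin. The heart mainly burns fatty acids that it takes up, and malonyl-CoA is best known there as the inhibitor of carnitine palmitoyltransferase 1, the step by which acyl chains enter the mitochondrion.

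Scd1, Scd2 and Scd4 lie beside each other on chromosome 19 and are close copies, which bears on every value below that separates them. In the GENCODE M21 annotation of GRCm38, Scd1 spans chr19:44394455-44407879 on the minus strand, Scd2 spans chr19:44293674-44306864 and Scd4 spans chr19:44333092-44346743, both on the plus strand. Over the last 900 coding bases, Scd1 was 93.6% identical to Scd2 and 87% identical to Scd4. The stretch of 90 coding bases below is centred on the longest run that Scd1 shares with Scd4, in exon 4 of 6. It is shown because a read from it cannot be told apart between Scd1 and Scd4. Letters are printed 5′ to 3′ on the coding strand (GRCm38), and capitals mark bases that differ from Scd1.
Scd1, chr19:44401784-44401873, minus strand: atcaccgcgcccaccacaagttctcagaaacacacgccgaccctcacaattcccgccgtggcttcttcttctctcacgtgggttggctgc
Scd2, chr19:44299634-44299723, plus strand: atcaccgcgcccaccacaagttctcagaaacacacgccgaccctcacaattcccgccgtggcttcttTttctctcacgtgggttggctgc
Scd4, chr19:44338935-44339024, plus strand: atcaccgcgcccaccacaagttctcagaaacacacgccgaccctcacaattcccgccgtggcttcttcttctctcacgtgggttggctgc
Here Scd4 did not differ from Scd1 at any base and Scd2 differed at 1.

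The next stretch, in exon 5 of 6, was chosen for the most differences between Scd1 and Scd4. It shows that other parts of the transcripts do tell Scd1 and Scd4 apart. Scd2 played no part in the choice of either stretch.
Scd1, chr19:44400243-44400332, minus strand: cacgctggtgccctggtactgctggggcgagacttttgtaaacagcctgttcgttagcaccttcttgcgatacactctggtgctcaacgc
Scd2, chr19:44301254-44301343, plus strand: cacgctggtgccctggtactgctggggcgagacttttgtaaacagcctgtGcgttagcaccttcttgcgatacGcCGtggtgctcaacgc
Scd4, chr19:44341263-44341352, plus strand: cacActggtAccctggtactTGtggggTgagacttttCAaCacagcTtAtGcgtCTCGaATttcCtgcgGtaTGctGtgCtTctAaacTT
In this stretch Scd2 differed from Scd1 at 4 bases and Scd4 at 27. Over the whole transcripts, 4.66% of 50-base windows of Scd1, 4.01% of those of Scd2 and 6.32% of those of Scd4 were found unchanged in a transcript of another gene. With windows of 100 bases these shares were 2.66%, 0.896% and 0.53%. The salmon program, with which the deposited counts were estimated, divides such shared reads by a model, so values of single desaturases carry that uncertainty.

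The other members lie on other chromosomes. Fasn (chr11:120805846-120824547, minus strand), Acaca (chr11:84129672-84401651, plus strand), Acly (chr11:100476353-100528000, minus strand) and Srebf1 (chr11:60199089-60222581, minus strand) are on chromosome 11, Elovl5 (chr9:77917364-77984519, plus strand) on chromosome 9 and Elovl6 (chr3:129532355-129638495, plus strand) on chromosome 3. Acaca is the member least separable by sequence, since 52.6% of its 50-base windows and 42.8% of its 100-base windows also occur in the processed pseudogene Gm5182, so its values are uncertain. Fasn, Acly and Elovl5 shared none of these windows with another gene.

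Summed estimated counts per library, in units of 1000000, ran from 21.5 to 59.3 with a median of 29.5. Summed cardiomyocyte markers made up 18265 to 34731 counts per 1000000 (CPM) in every library, so the heart label was met. V2523 (HFpEF+Veh) stood apart, with 2436 CPM of 16 hepatocyte genes such as Alb, against 4.32 to 54.1 CPM in the other HFpEF+Veh libraries, so vehicle values of the members are given with and without it. V2532 (HFpEF+Veh) held 92.2 CPM of 5 skeletal muscle genes, against at most 3.93 CPM elsewhere. The same hepatocyte sum was 35.6 to 502 CPM in the non-failing group, 2.36 to 7.18 CPM with TYA-018 and 2.74 to 21.6 CPM with the SGLT2 inhibitor, so every non-failing library lay above every library of the drug groups. In whole tissue, fewer cells of a type and less RNA per cell cannot be told apart.

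Scd1 and Scd4 moved in opposite directions between the non-failing and the HFpEF ventricles, and these were the only members that passed the test in any of the 6 comparisons. Scd1 was lower and Scd4 was higher in HFpEF, under each of the 3 treatments. Of the 9 members, 2 passed in HFpEF+Veh against non-failing (edgeR's quasi-likelihood test, Benjamini-Hochberg adjusted p under 0.05), where 3.15% of all tested genes did. The same 2 passed in HFpEF+TYA-018 against non-failing, with 7.39% of all genes, and in HFpEF+SGLT2i against non-failing, with 6.45%. These 3 comparisons share the non-failing libraries, so they are not independent of each other. Against HFpEF+Veh, 0 members passed with TYA-018, where 1.93% of all genes did, and 0 with the SGLT2 inhibitor, where 0.85% did. Between the 2 drug groups 0 members passed, with 0% of all genes. At an unadjusted p under 0.05, 4 members passed for TYA-018 against HFpEF+Veh, where 17.5% of all genes did. For the SGLT2 inhibitor against HFpEF+Veh 4 did (10%), and between the drugs 1 did (13.2%). Without V2523 these counts were 3, 1 and 1, for which the share of all genes is not given here. In the same 3 comparisons DESeq2 called 0 members, with 2.92%, 0.835% and 1.34% of all genes. Limma also called 0 members in each, with 0.302%, 0% and 0% of all genes.

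The members called were also counted without the libraries in doubt. Without V2523, 2 members passed in each of the 3 comparisons with non-failing mice (4.49% of all genes in HFpEF+Veh, 8.14% with TYA-018 and 6.91% with the SGLT2 inhibitor), and 0 passed against HFpEF+Veh with TYA-018 (1.42%) or the SGLT2 inhibitor (0.0145%), or between the drugs (0%). Without the 5 libraries that held over 100 CPM of hepatocyte markers, an alternative chosen after seeing the data, 1 member passed in HFpEF+Veh against non-failing (0.72% of all genes), 2 with TYA-018 (3.74%) and 2 with the SGLT2 inhibitor (3.05%). Against HFpEF+Veh 0 passed with TYA-018 (1.2%) or the SGLT2 inhibitor (0.0143%), and 0 between the drugs (0.00713%). With the hepatocyte sum as a term in the model, also added later, 1 member (Scd4) passed in HFpEF+Veh (2.18%), with TYA-018 (3.25%) and with the SGLT2 inhibitor (2.91%) against non-failing. In that model 0 passed against HFpEF+Veh with TYA-018 (1.2%) or the SGLT2 inhibitor (0.138%), and 0 between the drugs (0%).

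**Figure D1:**
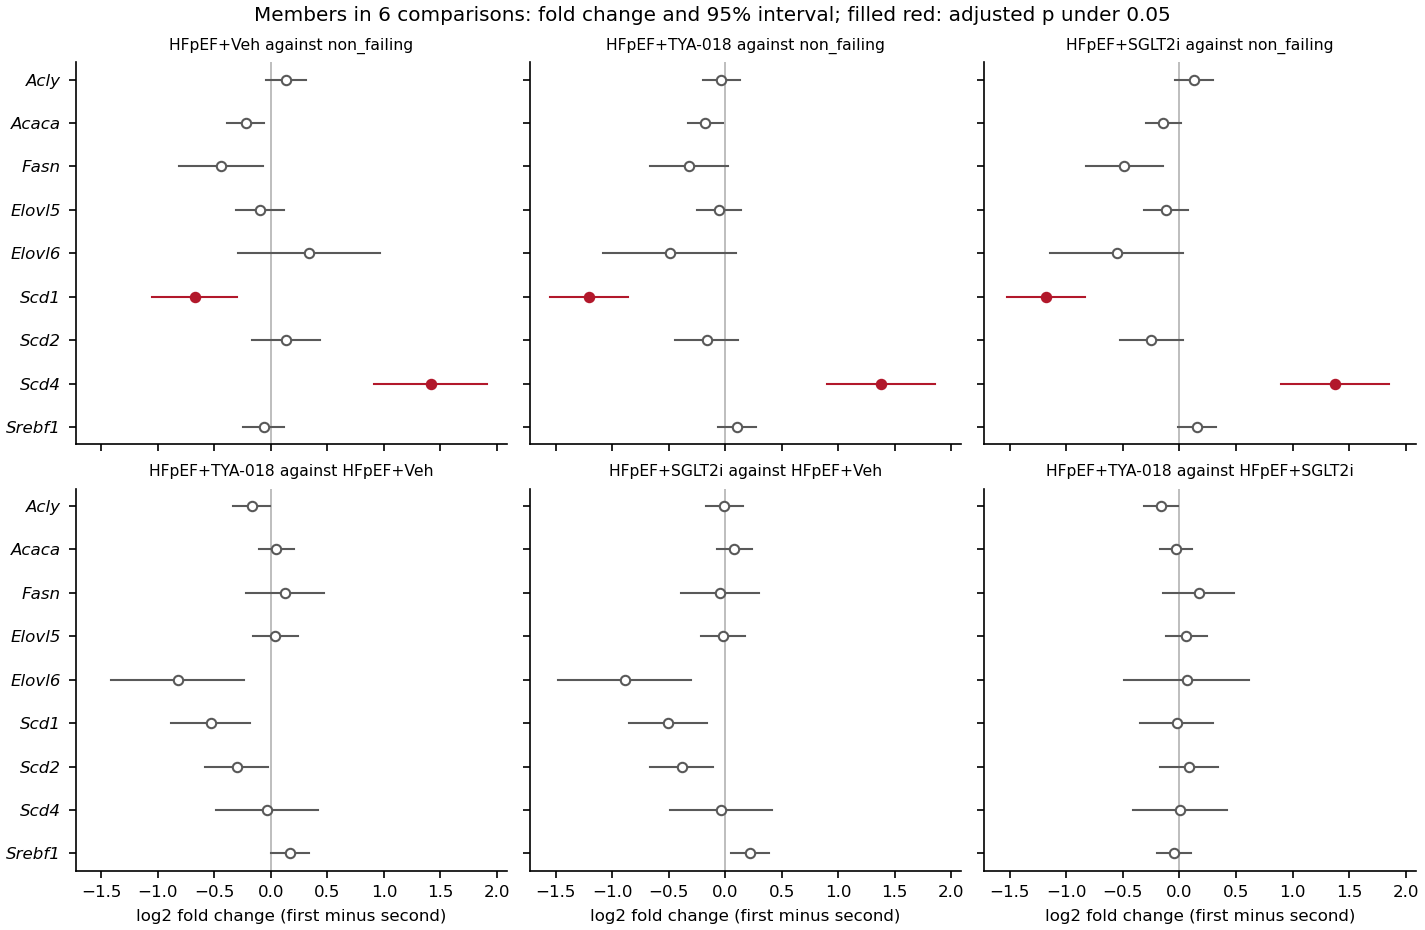
Log2 fold change of each of the 9 genes in each of the 6 comparisons, with its 95% interval from edgeR's quasi-likelihood fit. Filled red points mark an adjusted p under 0.05, which are Scd1 and Scd4 in the 3 comparisons with the non-failing mice and no point in the others.

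Scd1, the main stearoyl-CoA desaturase of liver and fat, had the highest levels in the non-failing ventricles. There it lay at 3.86 to 9.29 transcripts per 1000000 (TPM), with a median of 4.85, and in HFpEF+Veh at 1.98 to 7.52 TPM, with a median of 3.23. In HFpEF+TYA-018 it lay at 1.63 to 2.90 TPM (median 2.25) and in HFpEF+SGLT2i at 1.90 to 2.93 TPM (median 2.41). Every library of both drug groups was below the lowest non-failing library, whereas HFpEF+Veh overlapped the non-failing range. The highest HFpEF+Veh value was that of V2523, and the other 7 libraries of the group lay at 1.98 to 4.11 TPM. Between 194 and 1227 counts per library stood behind these values.

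Scd1 was 1.6-fold lower in HFpEF+Veh than in the non-failing group, a log2 fold change of -0.68 ± 0.18 (SE; 95% interval -1.05 to -0.30; edgeR adjusted p = 0.0323), and 7 of 8 libraries lay below the non-failing mean. It was 2.31-fold lower with TYA-018 (-1.21 ± 0.17 on the log2 scale, edgeR adjusted p = 8.23e-06) and 2.27-fold lower with the SGLT2 inhibitor (-1.18 ± 0.17, edgeR adjusted p = 1.14e-05), in 11 of 11 libraries each. Against HFpEF+Veh, the differences of -0.53 ± 0.17 for TYA-018 (adjusted p = 0.0917, edgeR) and -0.51 ± 0.17 for the SGLT2 inhibitor (adjusted p = 0.205, edgeR) did not pass, and without V2523 they were -0.32 and -0.30. The drug groups differed from each other in Scd1 by -0.02 on the log2 scale, with a 95% interval from -0.35 to 0.30.

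The difference in Scd1 between HFpEF+Veh and non-failing mice depended on single libraries. Without V2523 it was -0.89 on the log2 scale (edgeR adjusted p = 0.000999). It no longer passed without V2501 (-0.65, adjusted p = 0.0624), V2503 (-0.62, 0.0796), V2504 (-0.54, 0.111), V2521 (-0.63, 0.0645), V2526 (-0.60, 0.0687), V2527 (-0.62, 0.074), V2530 (-0.69, 0.052) or V2532 (-0.62, 0.0527), each by edgeR. The 2 differences between drug-treated and non-failing mice passed with any 1 of the 38 libraries left out.

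Hepatocyte markers and Scd1 were high in the same libraries of the non-failing group, and V2523 was the highest HFpEF+Veh library in both. In the other HFpEF+Veh libraries they did not always go together. V2532 had 54.1 CPM of these markers with 2.76 TPM of Scd1, and V2529 had 8.45 CPM with 4.11 TPM. The 4 non-failing libraries with the lower hepatocyte sums (35.6 to 55.2 CPM) had Scd1 at 3.86 to 3.94 TPM, and the 4 with the higher sums (116 to 502 CPM) had it at 5.75 to 9.29 TPM. The highest of the 22 drug-treated libraries had 2.93 TPM, and none of these had a hepatocyte sum above 21.6 CPM, so they do not overlap the lower 4 in either measure. Without the 5 libraries above 100 CPM of these markers, the Scd1 difference was -0.75 (edgeR adjusted p = 0.00182) with TYA-018, -0.73 (0.00283) with the SGLT2 inhibitor and -0.42 (0.284) in HFpEF+Veh. With the hepatocyte sum as a term, the 3 differences were -0.39 (edgeR adjusted p = 0.226), -0.44 (0.155) and -0.31 (0.368). Since every non-failing library is above every drug-treated one in this sum, the term and the group cannot be told apart in those comparisons.

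**Figure D2:**
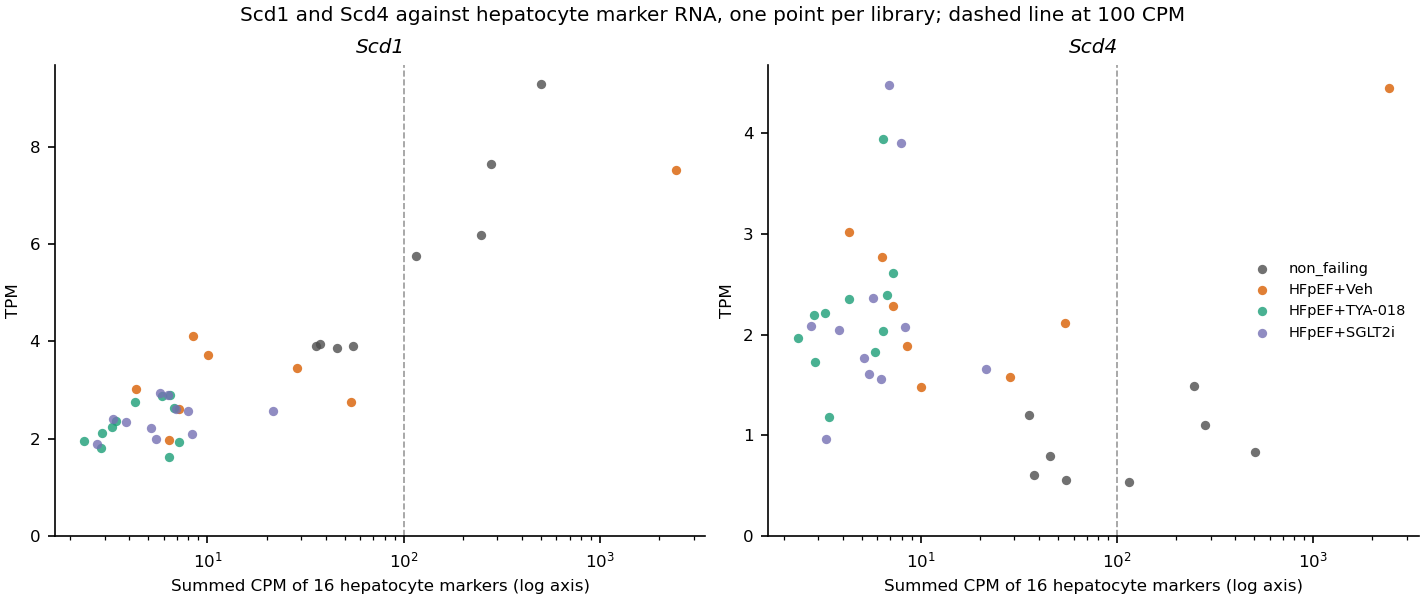
Scd1 and Scd4 TPM of each library against its summed CPM of 16 hepatocyte genes (log axis), coloured by group, with a dashed line at 100 CPM. Non-failing libraries with sums above 100 CPM have Scd1 from 5.75 to 9.29 TPM against 3.86 to 3.94 TPM in those below, while their Scd4 values (0.536 to 1.49 TPM and 0.555 to 1.20 TPM) overlap.

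Scd4, described as the heart's own desaturase isoform in the mouse, showed the opposite pattern. In the non-failing ventricles it lay at 0.536 to 1.49 TPM (median 0.813), and in HFpEF+Veh at 1.48 to 4.45 TPM (median 2.20), with V2523 the highest. It lay at 1.18 to 3.94 TPM (median 2.19) with TYA-018 and at 0.963 to 4.48 TPM (median 2.05) with the SGLT2 inhibitor. In each HFpEF group 1 library (V2530, V2550 and V2566) lay within the non-failing range, and the 3 HFpEF groups covered nearly the same range as each other. Counts were 52 to 128 per library in the non-failing group and reached 568 over all groups.

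Scd4 rose 2.66-fold in HFpEF+Veh over non-failing (1.41 ± 0.25 on the log2 scale, 95% interval 0.91 to 1.92, edgeR adjusted p = 0.000613), with 8 of 8 libraries above the non-failing mean. Without V2523 the rise was 1.25 on the log2 scale (edgeR adjusted p = 0.00143), over vehicle levels of 1.48 to 3.02 TPM. The rise was 2.60-fold with TYA-018 (1.38 ± 0.24, edgeR adjusted p = 0.000182) and 2.59-fold with the SGLT2 inhibitor (1.37 ± 0.24, edgeR adjusted p = 0.000194), in 11 of 11 libraries each. Between HFpEF+Veh and the drug groups the difference was -0.03 for TYA-018 (95% interval -0.48 to 0.42) and -0.04 for the SGLT2 inhibitor (-0.49 to 0.41), intervals that leave room for a change either way. The rise in HFpEF passed with any 1 library left out and without the 5 libraries rich in hepatocyte markers, where it was 1.40 in HFpEF+Veh (edgeR adjusted p = 0.0217), 1.52 with TYA-018 (0.00194) and 1.52 with the SGLT2 inhibitor (0.00215).

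A list of 4 brown adipocyte genes differed between the non-failing and the HFpEF groups in the same direction as Scd4. Its sum was 23.5 to 32.1 CPM in the non-failing group, 35.3 to 47.6 CPM in HFpEF+Veh, 41.6 to 55.9 CPM with TYA-018 and 39.7 to 50.9 CPM with the SGLT2 inhibitor. This sum consisted almost entirely of Cidea, a lipid droplet protein that rose by 0.69 on the log2 scale in HFpEF+Veh (edgeR adjusted p = 4.98e-07), and of Ppargc1b. The defining brown fat genes Ucp1 and Otop1 reached at most 5 counts and 1 count in any library. Some markers of other cells differed as well. In HFpEF+Veh against non-failing, where 3.15% of all genes passed, 2 of 5 fibroblast genes did, Lum (0.86, edgeR adjusted p = 0.0019) and Pdgfra (0.33, 0.0123). The fibroblast sum was 398 to 868 CPM (median 457) against 290 to 456 CPM (median 413). V2530 had the highest sum, and the next HFpEF+Veh library had 606 CPM. In the same comparison 3 of 6 cardiomyocyte genes passed, Myl2 (-0.37, edgeR adjusted p = 0.0121), Tnni3 (-0.34, 0.0129) and Tnnt2 (-0.43, 0.00459), with a sum of 21955 to 28483 CPM against 26692 to 34731 CPM. With the SGLT2 inhibitor against non-failing the same 3 cardiomyocyte genes passed, with 6.45% of all genes. With TYA-018 0 of 6 did, with 7.39% of all genes. The fibroblast sums were 299 to 501 CPM with the SGLT2 inhibitor and 321 to 550 CPM with TYA-018. The part of these cells in the Scd1 and Scd4 differences was not tested.

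Scd2, the desaturase isoform best known from brain, did not pass in any comparison. It lay at 2.40 to 2.92 TPM in the non-failing group and at 1.96 to 6.39 TPM in HFpEF+Veh, where the highest value was again V2523 and the next was 3.43 TPM. It lay at 1.68 to 2.95 TPM with TYA-018 and at 1.48 to 2.67 TPM with the SGLT2 inhibitor, and all 4 groups overlapped. The log2 difference of HFpEF+Veh from non-failing was 0.14 (edgeR adjusted p = 0.704) and turned to -0.10 without V2523. Scd3, the remaining gene of the cluster, reached at most 13 counts in a library and was not tested.

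**Figure D3:**
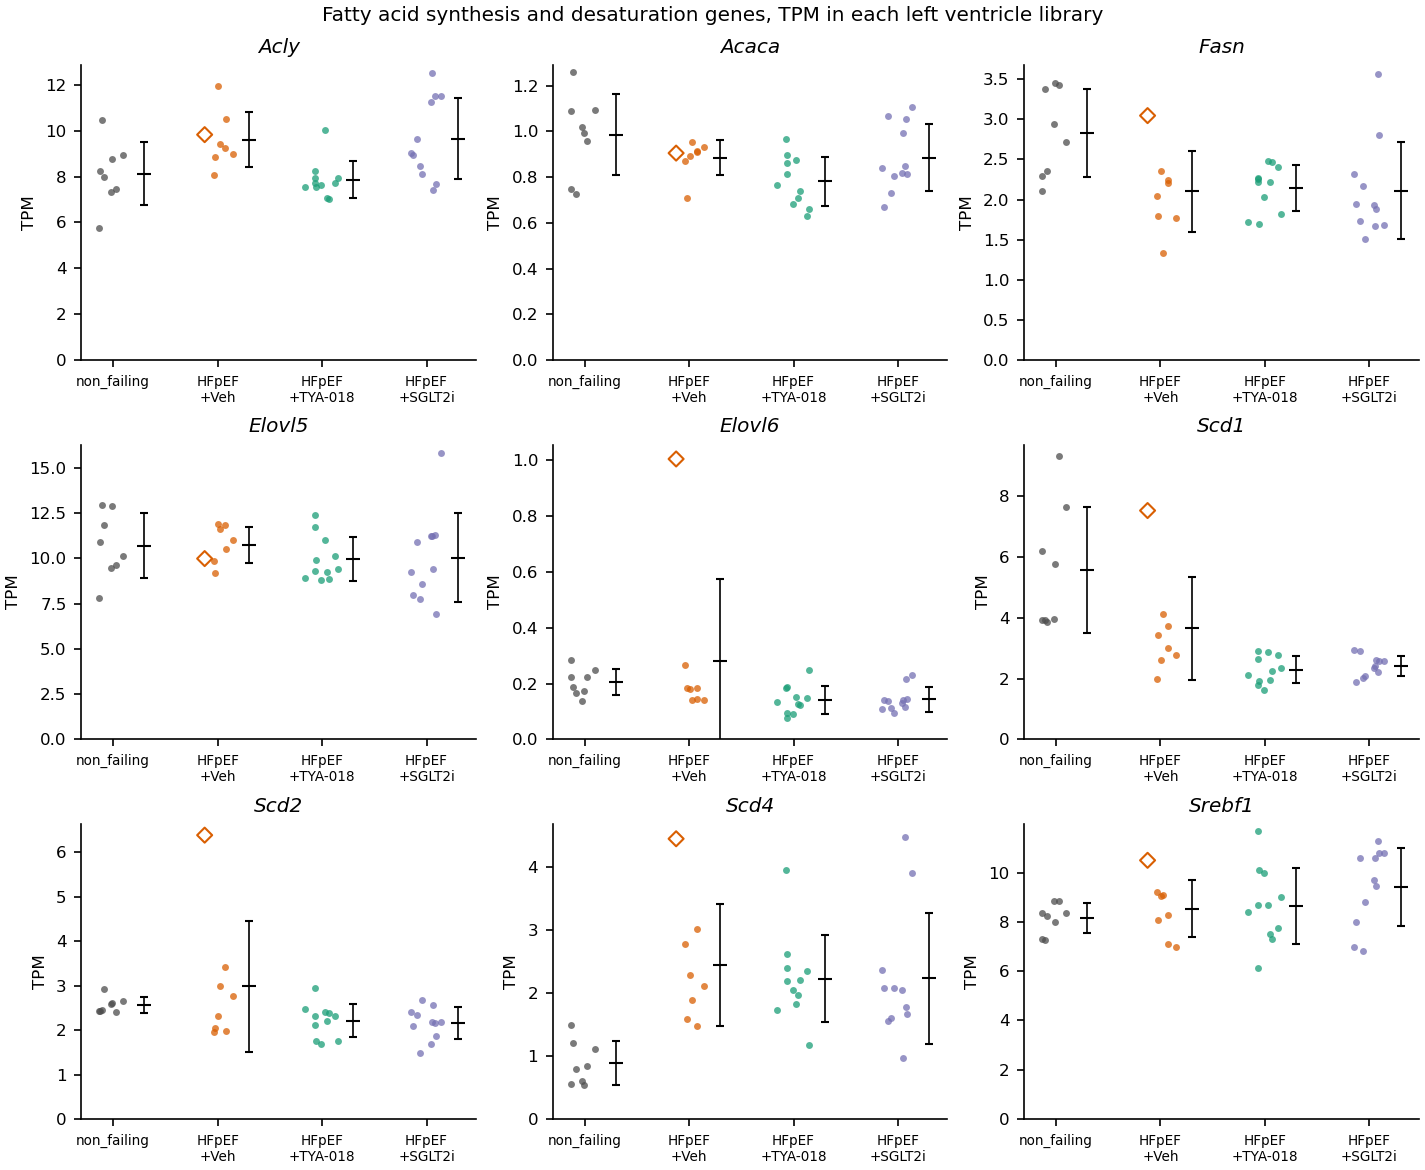
TPM of each of the 9 genes in each of the 38 libraries by group, with bars for the group mean ± SD, an open diamond marking V2523, and a linear scale of its own in each panel. Scd1 is highest in the non-failing group (3.86 to 9.29 TPM) and Scd4 lowest there (0.536 to 1.49 TPM), while V2523 is the highest HFpEF+Veh library for Scd1, Scd2, Scd4, Fasn, Elovl6 and Srebf1.

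The make-up of the desaturase pool was compared as the share of each isoform in the summed Scd TPM of a library, a ratio that does not depend on the scaling between libraries. Scd1 made up 60.0% ± 8.11 (SD, n = 8) of it in the non-failing group, 40.0% ± 8.11 (n = 8) in HFpEF+Veh, 34.1% ± 5.03 (n = 11) with TYA-018 and 36.1% ± 5.70 (n = 11) with the SGLT2 inhibitor. The Scd4 share went from 9.95% ± 3.59 in the non-failing group to 27.5% ± 7.05, 32.5% ± 6.01 and 31.6% ± 8.51 in the 3 HFpEF groups. The Scd2 share stayed between 29.7% and 32.9% on average. Scd4 exceeded Scd1 in 0 of 8 non-failing libraries, 2 of 8 of HFpEF+Veh, 5 of 11 with TYA-018 and 3 of 11 with the SGLT2 inhibitor.

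The Scd1 share fell by 20.0 percentage points in HFpEF+Veh against the non-failing group (two-sided exact permutation test, p = 0.000466, adjusted p = 0.00112 over 12 tests of shares). It fell by 25.9 points with TYA-018 and fell by 23.9 points with the SGLT2 inhibitor, with no overlap of the groups and an exact permutation p of 2.65e-05 each, the smallest this design can give (adjusted p = 0.000159). Without the 5 libraries rich in hepatocyte markers the 3 differences were -13.4 points (exact permutation, adjusted p = 0.0436), -19.3 points (0.00879) and -17.2 points (0.00879). Differences among the 3 HFpEF groups, -5.96 points with TYA-018 against HFpEF+Veh (exact permutation, adjusted p = 0.104), -3.91 points with the SGLT2 inhibitor against HFpEF+Veh (0.279) and -2.05 points with TYA-018 against the SGLT2 inhibitor (permutation, 0.381), did not pass. The first of these did pass in 2 of the 19 cases that left out 1 library. Without V2523 the Scd1 share of HFpEF+Veh was 39.9% ± 8.75 (n = 7), and it differed from the non-failing group by -20.1 points (exact permutation, adjusted p = 0.00224). The summed Scd level itself was 9.05 ± 2.11 TPM in the non-failing group, 6.77 ± 1.23 with TYA-018 and 6.82 ± 1.36 with the SGLT2 inhibitor (SD). In HFpEF+Veh it was 9.10 ± 3.86 TPM, of which V2523 alone had 18.4 TPM, and without that library it was 7.78 ± 1.06 TPM (n = 7).

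**Figure D4:**
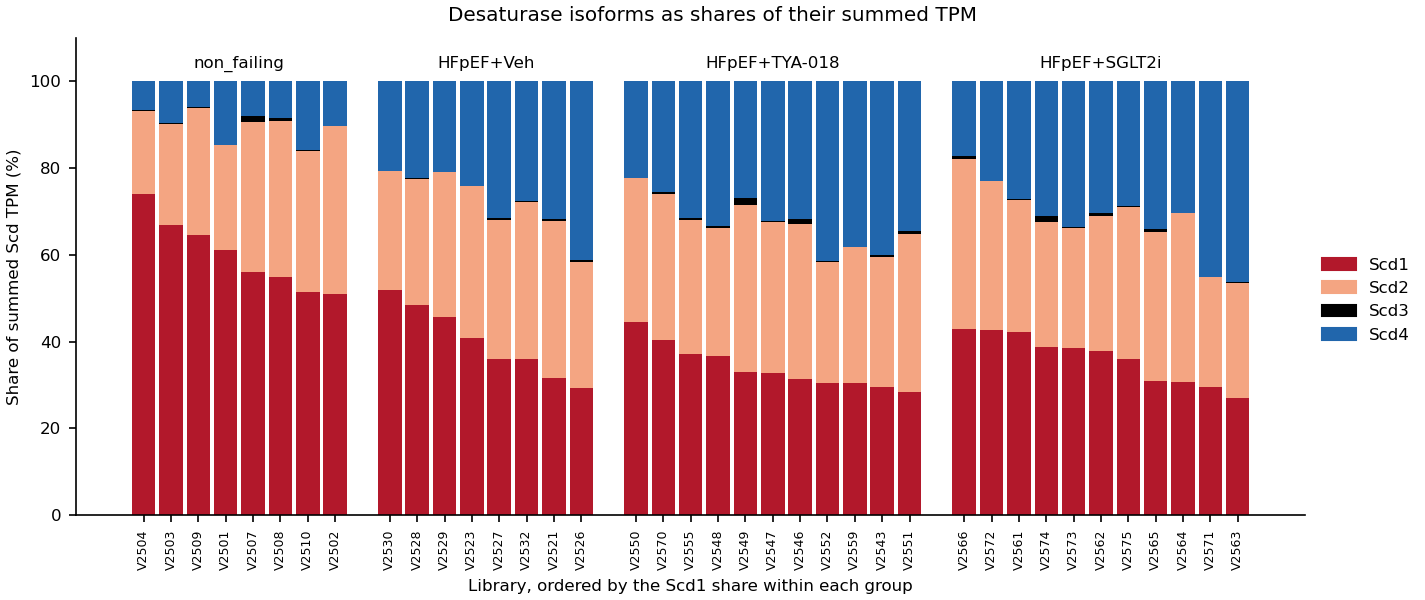
Share of Scd1, Scd2, Scd3 and Scd4 in the summed Scd TPM of each library, 1 stacked bar per library, ordered within each group by the Scd1 share. The Scd1 share is 51.0% to 74.0% in the non-failing libraries and 26.9% to 44.5% in the libraries of the drug groups.

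Acly, which supplies cytosolic acetyl-CoA, was among the more abundant members per length. It lay at 5.77 to 10.5 TPM (median 8.11) in the non-failing group, at 8.06 to 12 TPM (9.34) in HFpEF+Veh, at 7.01 to 10.03 TPM (7.73) with TYA-018 and at 7.41 to 12.5 TPM (9.03) with the SGLT2 inhibitor. All groups overlapped. The log2 difference from non-failing was 0.14 ± 0.09 in HFpEF+Veh (edgeR adjusted p = 0.470), with V2523 or without it (0.14), and that of TYA-018 from HFpEF+Veh was -0.17 ± 0.08 (0.265), with 9 of 11 libraries below the HFpEF+Veh mean. Between the drugs it was -0.16 ± 0.07 (edgeR adjusted p = 0.338), the 1 member with an unadjusted p under 0.05 in that comparison.

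Acaca, the cytosolic acetyl-CoA carboxylase of lipogenic tissue, lay near 1 TPM throughout, at 0.728 to 1.26 TPM in the non-failing group, 0.708 to 0.955 TPM in HFpEF+Veh, 0.628 to 0.965 TPM with TYA-018 and 0.669 to 1.11 TPM with the SGLT2 inhibitor. It was -0.22 ± 0.08 in HFpEF+Veh against non-failing on the log2 count scale, below the non-failing mean in 8 of 8 libraries, but did not pass (edgeR adjusted p = 0.145), and it was -0.20 without V2523. Counts and TPM gave opposite signs for TYA-018 against HFpEF+Veh, with a log2 difference in counts of 0.05 (edgeR adjusted p = 0.793) and mean levels of 0.781 TPM against 0.885 TPM.

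The other carboxylase gene, Acacb, is no member but belongs to the list of other pathway genes and encodes the form at the outer mitochondrial membrane, which makes the malonyl-CoA that restrains fatty acid entry. It was far more abundant than Acaca per length, with a median of 28.4 TPM over all 38 libraries against 0.871 TPM. Acacb lay at 16 to 33.2 TPM (median 22.7) in the non-failing group, 25 to 31.9 TPM (27.6) in HFpEF+Veh, 23.1 to 39.1 TPM (25.5) with TYA-018 and 29.8 to 39.2 TPM (32.6) with the SGLT2 inhibitor. The SGLT2 inhibitor group was the highest but overlapped each of the others. Acacb rose by 0.37 ± 0.09 on the log2 scale with the SGLT2 inhibitor against HFpEF+Veh (edgeR adjusted p = 0.0387, 11 of 11 libraries above the HFpEF+Veh mean) and by 0.51 ± 0.09 against non-failing (0.000465). With TYA-018 the difference from HFpEF+Veh was 0.13 (edgeR adjusted p = 0.469), and between the drugs it was -0.24 (0.198), so the drugs were not shown to differ. The call against HFpEF+Veh was lost when any 1 of 12 libraries (V2521, V2523, V2528, V2529, V2530, V2561, V2565, V2566, V2572, V2573, V2574 and V2575) was left out, when 0 genes of the list were called.

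Acacb made up 95.9% ± 0.495 (SD, n = 8) of the summed carboxylase TPM in the non-failing group, 96.9% ± 0.375 (n = 8) in HFpEF+Veh, 97.2% ± 0.591 (n = 11) with TYA-018 and 97.4% ± 0.373 (n = 11) with the SGLT2 inhibitor. The share was 1.02 points higher in HFpEF+Veh than in the non-failing group (exact permutation, adjusted p = 0.00249), 1.23 points higher with TYA-018 (0.000953) and 1.51 points higher with the SGLT2 inhibitor (0.000212). The SGLT2 inhibitor group was 0.493 points above HFpEF+Veh (exact permutation, adjusted p = 0.0204), and TYA-018 was 0.217 points above it (0.381). Without V2523 the HFpEF+Veh share was 97.0% ± 0.388 (n = 7), and the SGLT2 inhibitor group was 0.455 points above it (exact permutation, adjusted p = 0.0437). Without the 5 libraries rich in hepatocyte markers, the first and the fourth of these differences were 0.970 (exact permutation, adjusted p = 0.0623) and 0.455 points (0.0510). The small size of the Acaca share and its sequence overlap with Gm5182 limit these ratios.

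**Figure D5:**
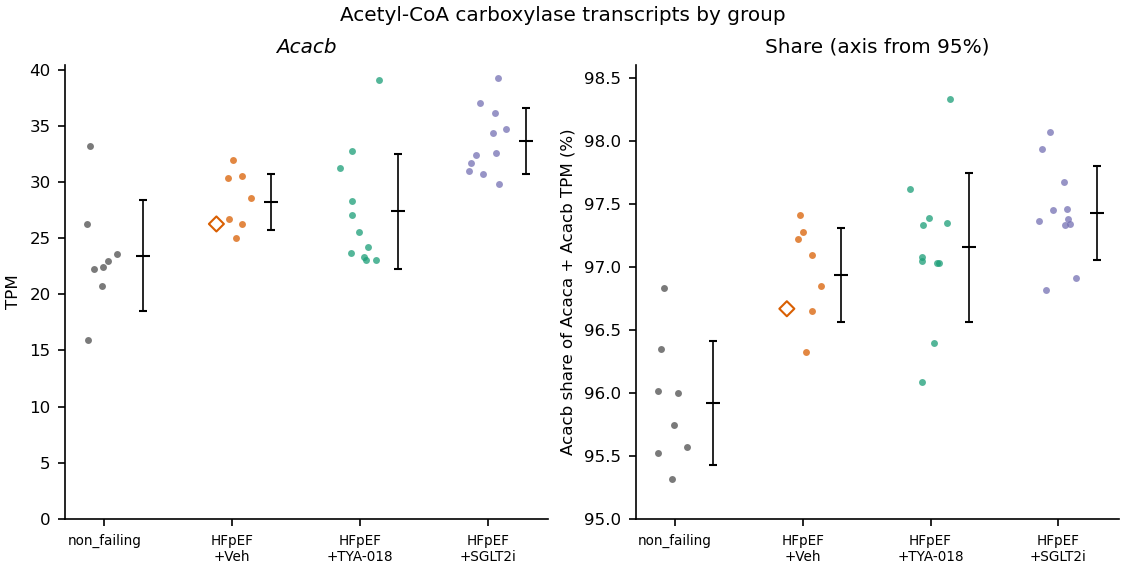
Acacb TPM per library by group, and the share of Acacb in the summed TPM of Acaca and Acacb, on an axis that starts at 95%, with bars for the mean ± SD and an open diamond for V2523. The SGLT2 inhibitor libraries sit at 29.8 to 39.2 TPM and at 96.8% to 98.1%, with the non-failing libraries at 16 to 33.2 TPM and 95.3% to 96.8%.

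Fasn, the enzyme that assembles palmitate, was a low transcript in these ventricles. It lay at 2.11 to 3.45 TPM (median 2.83) in the non-failing group, 1.34 to 3.05 TPM (2.13) in HFpEF+Veh, 1.69 to 2.48 TPM (2.22) with TYA-018 and 1.51 to 3.56 TPM (1.93) with the SGLT2 inhibitor, all overlapping. V2523 was the highest HFpEF+Veh library, and the others reached 2.36 TPM. Differences from non-failing were -0.44 ± 0.18 in HFpEF+Veh (edgeR adjusted p = 0.208, 7 of 8 libraries below the mean; -0.46 without V2523), -0.32 with TYA-018 (0.264) and -0.49 ± 0.17 with the SGLT2 inhibitor (0.0749, 9 of 11). The estimated effective length of Fasn varied from 2032 to 4998 bases between libraries, and with these lengths as an offset the differences passed in HFpEF+Veh (-0.53, edgeR adjusted p = 0.0331) and with the SGLT2 inhibitor (-0.44, 0.0436). For the SGLT2 inhibitor it also passed in DESeq2 (-0.50, adjusted p = 0.0475) and, in edgeR, without V2508 (-0.56, adjusted p = 0.0441), V2561 (-0.61, 0.0146) or V2572 (-0.57, 0.0339).

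The elongases did not pass in any comparison. Elovl5, which extends polyunsaturated chains, had the highest median TPM of the members over all 38 libraries. With the SGLT2 inhibitor, however, Srebf1 had a higher median than Elovl5, 9.71 against 9.43 TPM. Elovl5 lay at 7.79 to 12.9 TPM in the non-failing group, 9.20 to 11.9 TPM in HFpEF+Veh, 8.81 to 12.4 TPM with TYA-018 and 6.95 to 15.8 TPM with the SGLT2 inhibitor. Its log2 differences from non-failing were -0.10 in HFpEF+Veh (-0.07 without V2523), -0.06 with TYA-018 and -0.12 with the SGLT2 inhibitor. Elovl6, which extends palmitate to stearate, was the lowest, at 0.139 to 0.284 TPM in the non-failing group, 0.0776 to 0.247 TPM with TYA-018 and 0.0945 to 0.232 TPM with the SGLT2 inhibitor. In HFpEF+Veh it lay at 0.142 to 0.268 TPM, apart from V2523 at 1.00 TPM. Elovl6 was -0.83 ± 0.29 with TYA-018 (edgeR adjusted p = 0.118) and -0.89 with the SGLT2 inhibitor (0.173) against HFpEF+Veh, and -0.21 and -0.28 without V2523, so most of the difference in value came from that library. Only 12 to 196 counts per library stood behind Elovl6.

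Srebf1, the lipogenic regulator, did not pass in any comparison, and its groups overlapped. It lay at 7.25 to 8.85 TPM in the non-failing group, 6.99 to 10.5 TPM in HFpEF+Veh, 6.12 to 11.7 TPM with TYA-018 and 6.82 to 11.3 TPM with the SGLT2 inhibitor. V2523 was the highest HFpEF+Veh library, and the next had 9.23 TPM. The difference from HFpEF+Veh was 0.17 ± 0.08 on the log2 scale with TYA-018 (edgeR adjusted p = 0.289) and 0.22 ± 0.08 with the SGLT2 inhibitor (0.298), with 8 of 11 libraries of the latter above the HFpEF+Veh mean. Without V2523 these were 0.23 (edgeR adjusted p = 0.113) and 0.28 (0.175). Its mRNA level does not report the processing of the SREBP-1 protein, which was not measured.

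Over all 38 libraries, the order of median levels per length was Elovl5 (10.1 TPM), Srebf1 (8.68), Acly (8.37), Scd1 (2.69), Scd2 (2.36), Fasn (2.22), Scd4 (1.93), Acaca (0.871) and Elovl6 (0.146). Every pair of neighbours in this order overlapped in range over the libraries, and without V2523 Acaca and Elovl6 alone were separated. The order of medians also differed between groups. For example, Scd4 (0.813 TPM) was below Acaca (1.01 TPM) in the non-failing group, and Acly (9.34 TPM) above Srebf1 (8.66 TPM) in HFpEF+Veh. The median log2 difference of the 9 members was -0.07 in HFpEF+Veh, -0.16 with TYA-018 and -0.14 with the SGLT2 inhibitor against non-failing, beside 0.01 over all tested genes in each. Against HFpEF+Veh it was -0.03 for TYA-018 and -0.04 for the SGLT2 inhibitor, beside -0.01 and 0.01 over all genes. Without V2523 it was -0.13 in HFpEF+Veh against non-failing, beside 0.004 over all genes. Against HFpEF+Veh without that library it was 0.02 for TYA-018 and -0.03 for the SGLT2 inhibitor, beside -0.002 and 0.006.

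Around the members, 56 other genes of the same pathways were listed by role, of which 49 could be tested. In HFpEF+Veh against non-failing, 1 of 49 passed, with 3.15% of all genes. It was Srebf2, the cholesterol-pathway relative of Srebf1, which fell by 0.28 on the log2 scale (edgeR adjusted p = 0.0377). The call for Srebf2 was lost without V2501, V2502, V2503, V2527, V2528, V2529 or V2530 (0 genes called), and 3 genes (Cyb5a, Fads2 and Srebf2) were called without V2523, with 4.49% of all genes. In the drug groups against non-failing, 11 of 49 passed with TYA-018 (7 higher and 4 lower), with 7.39% of all genes, and 9 of 49 with the SGLT2 inhibitor (7 higher and 2 lower), with 6.45%. The list's median difference in these was 0.08 and 0.03, beside 0.01 over all genes, and leaving out V2503 lowered the count for TYA-018 to 7.

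Hepatocyte sums differed between these groups, and the calls were counted again under the hepatocyte alternatives. In the drug comparisons the sum and the group cannot be told apart. Leaving out the rich libraries keeps 4 of the 8 non-failing ones. The part of hepatocyte RNA in a lost call was not tested. For TYA-018, 7 of the list passed without the 5 libraries rich in those markers (3.74% of all genes) and 6 with the hepatocyte sum as a term (3.25%). Agpat2, Idh1 and Mlycd passed in both, Acsl4, Fads2, Nr1h3 and Srebf2 in the first alone, and Fads3, Fads6, Mecr and Pgd in neither. The term added Acsl3, Acss2 and Me1. For the SGLT2 inhibitor, 6 passed without those libraries (3.05% of all genes) and 8 with the term (2.91%). Acacb, Agpat2, Me1 and Mlycd passed in both, Cyb5a and Srebf2 in the first alone, and Nr1h3, Pgd and Scap in neither, and the term added Acsl1, Acsl3, Idh1 and Insig1. With the term all genes called were higher, so that the 4 lower calls for TYA-018 and the 2 for the SGLT2 inhibitor were lost. In HFpEF+Veh the call for Srebf2 was lost in both, with 1 gene called in each, Cyb5a (lower) without those libraries and Insig1 (higher) with the term.

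For the genes that supply carbon and reducing power, differences are given against non-failing mice. Idh1, the cytosolic isocitrate dehydrogenase, rose by 0.38 on the log2 scale with TYA-018 (12.3 to 15.6 TPM on average, edgeR adjusted p = 0.00552). Me1, the malic enzyme, rose by 0.61 with the SGLT2 inhibitor (22.7 to 33.8 TPM, edgeR adjusted p = 0.0230). Pgd, of the pentose phosphate pathway, rose by 0.22 with TYA-018 (edgeR adjusted p = 0.0321) and 0.23 with the SGLT2 inhibitor (0.0264), calls that were lost under both hepatocyte alternatives. Acss2, which makes acetyl-CoA from acetate, was 0.28 with TYA-018 (edgeR adjusted p = 0.0873, called with the hepatocyte term and without V2523 and V2532) and 0.18 with the SGLT2 inhibitor (0.330).

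Next to the carboxylation step, Mlycd, which degrades malonyl-CoA, rose from 28.3 TPM in the non-failing group to 38.5 TPM with TYA-018 (0.48, edgeR adjusted p = 0.00308) and 42.5 TPM with the SGLT2 inhibitor (0.59, 0.000299). Both the gene for making malonyl-CoA at the mitochondrion, Acacb, and the one for degrading it were higher with the SGLT2 inhibitor than in non-failing mice. Mecr, of mitochondrial fatty acid synthesis, rose by 0.19 with TYA-018 (edgeR adjusted p = 0.0315), likewise lost under both. None of the 7 tested genes of the elongation list passed in either comparison.

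Among the desaturases outside the Scd cluster and their cytochrome, Fads6 fell by 0.95 with TYA-018 against non-failing (0.434 to 0.219 TPM, edgeR adjusted p = 0.0110). Fads2, the delta-6 desaturase of polyunsaturated fatty acids, fell by 0.45 (edgeR adjusted p = 0.0235), while Fads3 rose by 0.30 (0.0165). The calls for Fads6 and Fads3 were lost under both hepatocyte alternatives, and that for Fads2 with the hepatocyte term. With the SGLT2 inhibitor Fads2 was -0.38 (edgeR adjusted p = 0.0648). Cyb5a, the electron donor of the desaturases, fell by 0.35 there (59.8 to 46.3 TPM, edgeR adjusted p = 0.00319) with no overlap of the groups. Its call was lost with the hepatocyte term. Fads1, the delta-5 desaturase, was -0.72 with TYA-018 (edgeR adjusted p = 0.353).

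Of the regulators, Srebf2 fell against non-failing by 0.46 with TYA-018 (3.77 to 2.66 TPM, edgeR adjusted p = 5.96e-05) and by 0.40 with the SGLT2 inhibitor (to 2.88 TPM, 0.000416). Both calls were lost with the hepatocyte term. Nr1h3, the liver X receptor known to drive Srebf1 and Scd1, rose by 0.42 with TYA-018 (edgeR adjusted p = 0.00739) and 0.37 with the SGLT2 inhibitor (0.0216). The call for TYA-018 was lost with the hepatocyte term, and that for the SGLT2 inhibitor under both hepatocyte alternatives. Scap, the escort of the SREBP proteins, rose by 0.18 with the SGLT2 inhibitor (edgeR adjusted p = 0.0184), a call lost under both. Insig1, their retention partner, averaged 4.96 TPM in non-failing mice, 6.48 TPM in HFpEF+Veh, 4.58 TPM with TYA-018 and 5.62 TPM with the SGLT2 inhibitor. Its difference of HFpEF+Veh from non-failing, 0.29, did not pass (edgeR adjusted p = 0.268) but did with the hepatocyte term. Its difference of -0.34 between TYA-018 and HFpEF+Veh did not pass (edgeR adjusted p = 0.129, 11 of 11 libraries lower). Mlxipl, which encodes the carbohydrate-responsive factor ChREBP, was -0.01 in HFpEF+Veh against non-failing. Of the glycerolipid genes, Agpat2 rose from 19.2 TPM in non-failing mice to 27.0 TPM with TYA-018 (0.55, edgeR adjusted p = 0.00173) and to 27.3 TPM with the SGLT2 inhibitor (0.48, 0.00626). The acyl-CoA synthetase Acsl4 fell by 0.27 with TYA-018 against non-failing (edgeR adjusted p = 0.0465), a call lost with the hepatocyte term.

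Between treated and vehicle HFpEF mice, Acacb with the SGLT2 inhibitor was the 1 gene of 49 that passed, with 0.85% of all genes. For TYA-018, 0 of 49 passed in edgeR, with 13 at an unadjusted p under 0.05 (17.5% of all genes) and 3 called by DESeq2 (2.92% of all genes). Without V2523, Agpat2 and Idh1 passed for TYA-018 (2 genes, with 1.42% of all genes). Between the drugs 0 of 49 passed in edgeR, DESeq2 and limma, with 6 at an unadjusted p under 0.05 (13.2% of all genes).

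Within groups, some members varied together from mouse to mouse. After each group's mean log2 CPM was removed, Acly and Elovl5 had Pearson's r = 0.66 over 38 libraries (permutation within groups, adjusted p = 0.00540 over 36 pairs) and Spearman's rho = 0.57 (adjusted p = 0.0220). Without the 2 libraries farthest from the median of Acly, V2501 and V2507, r was 0.57. Acaca and Elovl5 had r = 0.61 (permutation, adjusted p = 0.00666) and rho = 0.54 (adjusted p = 0.0220), and r was 0.49 without V2566 and V2571. Without V2523 this pair had r = 0.60 (permutation, adjusted p = 0.0112), but its rho of 0.51 no longer passed (adjusted p = 0.0512). No other pair passed in Pearson's r. Fasn and Acly passed in rho only (rho = 0.52, permutation adjusted p = 0.0220; r = 0.43, adjusted p = 0.0804). Libraries share depth and RNA quality, whose part in these relations was not tested.

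The genes whose group-centred levels were most like each member over the 38 libraries are given as a description, without a test. For Scd1 they were Rbp4 (r = 0.74), Ass1 (0.73) and Serpina1e (0.72), genes known for high expression in liver, and without V2523 they were Trf, Ass1 and Rbp4 (0.62 each). For Scd4 they were Chrna2 (0.73), Fam189a2 (0.72) and Lpcat3 (0.70), and without V2523 Fam189a2, Chrna2 and S1pr5. For Scd2 they were Scara3, Crot and B4galt6 (0.72 to 0.73) and for Elovl6 Muc1, Nsdhl and Gclc (0.72 to 0.74), and all of these were replaced by other genes when V2523 was left out. Acly was most like Fabp4 (0.82), Slfn5 (0.81) and Stim1 (0.80), and Elovl5 most like Gnb1 (0.86), Ccnyl1 (0.85) and Prkch (0.85). Fasn was most like Ripk2 (0.72), Acaca like Tacc1 (0.72) and Srebf1 like Soat2 (0.68), which was no longer among its nearest 3 without V2523 (Rnpep, Armcx6 and Cnpy3).

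White adipocyte RNA was examined because fat is rich in these transcripts. The sum of 8 adipocyte genes was 2.41 to 15.2 CPM in the non-failing group, 1.19 to 31.9 CPM in HFpEF+Veh with V2523 the highest, 0.982 to 2.33 CPM with TYA-018 and 0.875 to 2.48 CPM with the SGLT2 inhibitor. The defining genes were near 0, with at most 12 counts of Adipoq, 6 of Plin1, 3 of Lep and 14 of Cfd in any library. The highest count on the list was 1120 of Pck1, which liver also expresses, in V2523. In the non-failing group the highest count was 416, also of Pck1, while Adig reached at most 77 in any library. V2501, V2503, V2504 and V2509 had the highest non-failing values of both this sum and the hepatocyte sum. The part of liver RNA in the relations below was not tested. Scd1 followed this sum over 38 libraries (r = 0.70, permutation within groups, adjusted p = 0.00594 over 9 members; rho = 0.49, adjusted p = 0.0418), with r = 0.39 without V2504 and V2523. Within the groups r was 0.93 in the non-failing group (n = 8), 0.76 in HFpEF+Veh (n = 8), 0.58 with TYA-018 (n = 11) and -0.16 with the SGLT2 inhibitor (n = 11), without a test. No other member passed.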

How the data were processed

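Left ventricle polyA RNA of 38 mice was sequenced (TruSeq Stranded mRNA kit). The authors trimmed reads with fastp, quantified transcripts with Salmon 1.6.0 (submitters' processing notes) and summarised them per gene with tximport. They deposited expected counts, TPM and effective lengths. The labels name hg38 and the methods a mouse assembly, and read length also differs between the sources. The labels give no batch. Where nothing says that mice were kept or processed independently, p-values measure the spread between these libraries.

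Expected counts were rounded and fitted in edgeR 4.0.16 (R 4.3.3; TMM, filterByExpr, quasi-likelihood, 1 model of 4 groups, 6 contrasts, two-sided), with Benjamini-Hochberg adjustment over 13765 genes and a threshold of 0.05. Standard errors were taken from the log2 fold change and its F statistic. Shares of TPM were compared by exact permutation, or by 100000 resamples for 11 against 11, and adjusted over 12 tests. Sums of marker genes are in CPM, and correlations used log2 CPM with a prior count of 2. The fit was tested on simulated data. The alternatives were DESeq2 1.42.0, limma 3.58.1 on log2(TPM + 1), no filter, library size alone, effective length as an offset, only the groups compared, shares of counts, and leaving out each library. Leaving out V2523 with V2532, leaving out libraries above 100 CPM of hepatocyte markers and a hepatocyte term were chosen after seeing the data.

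The members and lists were chosen with earlier results of these data known. Named were all 9 members, called genes of the pathway lists (up to 6 per comparison by p, others by choice after their values were seen), Acacb, Acss2, Fads1, Fads2, Insig1 and Mlxipl, and the 3 genes most like each member. Sequences come from GRCm38 with GENCODE M21.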

Additional observations from a re-analysis of the deposited data

Results flagged for a closer look

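Of 22 sets of values that could be tested for a library far from the others (the groups of 8), 4 had one, where chance gives about 1 in 20. In HFpEF+Veh, V2523 had 7.52 TPM of Scd1, 6.39 TPM of Scd2 and 1.00 TPM of Elovl6, and its gap to the next library was 0.615, 0.667 and 0.854 of the group's range. V2523 is also the library with 2436 CPM of hepatocyte markers, and the part of that RNA in each value was not tested. In the same group, V2528 had the lowest Acaca, 0.708 TPM, with a gap of 0.649 of the range.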

How the results depend on the processing

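No paired analysis was possible because every mouse number occurs in 1 group only. Scd4 kept its direction and its call against non-failing mice under every alternative in all 3 comparisons, and Scd1 did so for TYA-018 and the SGLT2 inhibitor except with the hepatocyte term, where 1 member was called in each (3.25% and 2.91% of all genes). In HFpEF+Veh against non-failing, 1 member was called with library size alone (3.47% of all genes; Scd1 -0.60, edgeR adjusted p = 0.0696), in limma (3.24%; -0.56, 0.0517), with only the groups compared (2.59%; -0.69, 0.143), without the libraries rich in hepatocyte markers (0.72%) and with the hepatocyte term (2.18%), and 1 to 2 when each library was left out (2.09% to 4.49%). Library size alone called 3 members for TYA-018 against HFpEF+Veh, where it called 7.96% of all genes against 1.93% with TMM, Scd1 (-0.67, edgeR adjusted p = 0.0198), Acly (-0.30, 0.0329) and Elovl6 (-0.97, 0.0340). Fasn passed against non-failing with the length offset in HFpEF+Veh (-0.53) and with the SGLT2 inhibitor (-0.44), and with the latter in DESeq2 (-0.50), and 2 to 3 members passed there when each library was left out (5.07% to 7.18% of all genes).

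Pathway genes called are given with the share of all genes called in the same way. In HFpEF+Veh against non-failing they numbered 0 without the filter (1.91%), with library size alone (3.47%) and with only the groups compared (2.59%), 2 with the length offset (3.17%) and in limma (3.24%), 6 without V2523 and V2532 (6.6%), and 0 to 3 when each library was left out (2.09% to 4.49%). For TYA-018 against HFpEF+Veh they numbered 2 without the filter (2.83%), 4 with library size alone (7.96%), 3 in DESeq2 (2.92%), 2 without V2523 and V2532 (0.649%), 2 without the libraries rich in hepatocyte markers (1.2%), 2 with the hepatocyte term (1.2%) and 0 to 3 when each library was left out (1.21% to 2.86%). For the SGLT2 inhibitor against HFpEF+Veh they numbered 2 without the filter (2.09%), 0 with library size alone (1.08%), the length offset (0.792%), limma (0%), only the groups compared (0.0226%) and each added alternative (0.0143% to 0.144%), and 0 to 1 when each library was left out (0.0145% to 1.27%). For TYA-018 against non-failing they numbered 7 without the rich libraries (3.74%), 6 with the term (3.25%) and 7 to 14 when each library was left out (5.33% to 8.39%), and for the SGLT2 inhibitor 6 to 11 (5.07% to 7.18%).

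Signs that turned all belonged to differences that did not pass, and the cause was not tested. In HFpEF+Veh against non-failing, Scd2 became -0.12 without V2523 and V2532 and -0.14 without the libraries rich in hepatocyte markers (-0.10 to 0.20 when each library was left out). Elovl6 became -0.30 in DESeq2, -0.22 without V2523 and V2532 and -0.25 without the rich libraries (-0.28 to 0.46). Elovl5 became 0.0087 in limma, and Srebf1 0.0086 with library size alone, 0.048 in limma and 0.015 with the hepatocyte term. For TYA-018 against HFpEF+Veh, Scd4 became 0.13 without V2523 and V2532, 0.12 without the rich libraries and 0.24 with the term (-0.13 to 0.13). Fasn became -0.00300 with library size alone. Acaca became -0.080 with library size alone, -0.050 with the length offset and -0.10 in limma, and Elovl5 -0.087 with library size alone, -0.093 in limma and -0.040 with the term. For the SGLT2 inhibitor against HFpEF+Veh, Scd4 became 0.12, 0.11 and 0.18 under the 3 added alternatives (-0.18 to 0.12), and Fasn became 0.094 with the length offset and 0.016 in limma (-0.16 to 0.031), and Acly 0.088 and 0.016 (-0.038 to 0.027). Elovl5 ran from -0.10 to 0.0059. Between the drugs, Scd1 became 0.053 with the term (-0.068 to 0.015), Scd4 -0.039 with library size alone (-0.091 to 0.15) and Elovl6 -0.0072 in limma (-0.070 to 0.16), and Acaca ran from -0.058 to 0.0034. Against non-failing with the term, Scd2 became 0.27 and Elovl6 0.46 for TYA-018, and 0.14 and 0.30 for the SGLT2 inhibitor. Acly for TYA-018 ran from -0.091 to 0.0036.

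Of the shares, Acacb of the SGLT2 inhibitor over HFpEF+Veh was 0.433 points (exact permutation, adjusted p = 0.0839) without V2523 and V2532 and 0.455 (0.0510) without the rich libraries, and that of HFpEF+Veh over non-failing 0.970 (0.0623) without them. As a share of counts, Acacb was -0.583 points with TYA-018 against the SGLT2 inhibitor (permutation, adjusted p = 0.0417). The Scd1 share of TYA-018 against HFpEF+Veh ran from -7.49 to -4.27 points when each library was left out. Without the 2 libraries farthest out, the relation with the adipocyte sum turned to r = -0.11 for Scd2, -0.080 for Scd4, 0.018 for Acaca and -0.042 for Srebf1. Depth limits Elovl6 (12 to 196 counts) and Scd3 (at most 13).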
